A study of Mus musculus with 24 samples.

Results

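The genes described here were 10 genes of the MHC class I antigen presentation pathway, chosen by symbol from the 14922 genes of the deposited table: the heavy chain genes H2-K1, H2-D1, H2-T22, H2-T23, H2-Q4 and H2-M3, the light chain gene B2m, and the peptide loading genes Tap1, Tap2 and Tapbp. All 10 were present. Their RNA was measured by poly(A) sequencing in neural stem cells (NSCs) of the E14.5 mouse cortex, all labelled female and at fewer than 10 passages, from 100 ng of RNA a library. The background and the genotype gave 4 groups. On FVB/NJ, cells were Smchd1+/+ (FVB wild type) or Smchd1MommeD43/MommeD43 (FVB MommeD43), MommeD43 being a point mutation of the chromatin protein SMCHD1 that arose in a chemical mutagenesis screen. On C57BL/6J, every cell carried a fusion of Smchd1 with GFP at the gene's own locus, either without further change (B6GFP wild type, labelled Smchd1+/+ and homozygous for the fusion in the study's methods) or with the MommeD43 change added by CRISPR (B6GFP MommeD43). Strain and GFP fusion therefore differed together and cannot be told apart here.

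Of 24 labelled columns, 2 equalled the mean of their group mates in every gene (FVB MommeD43 replicate 3 and B6GFP MommeD43 replicate 2 of batch 1) and were left out. That left 22 libraries of 17 lines, told apart by the cell line number of the labels: 5 lines in FVB wild type and 4 lines in each of the other groups. Libraries were made in batch 1 (both strains), batch 2 (FVB only) and batch 3 (B6GFP only). Values are log2 CPM, that is reads of a gene scaled to the library's total, on a log2 scale, already corrected by the authors for batch and, per the study's methods, with sex and strain taken into account, so the size of a strain difference depends on that step. The labels do not say that each line came from a separate embryo, and p-values measure only the spread between these lines and their libraries. In the fitted model, repeat libraries of a line counted almost as separate, since the correlation within lines was 0.0831. Absolute depth is unknown. The steps between the lowest values gave depths relative to the deepest library: those of batch 2 were the shallowest, at 0.137 to 0.19, with batch 1 at 0.526 to 0.893 and batch 3 at 0.435 to 1. The neural stem cell markers were present, from a mean of 3.21 log2 CPM (Hes5) to 11.11 (Vim). Of 11 markers of microglia and other leukocytes only P2ry12 was in the table, at 0.581 to 2.92 CPM over libraries, and the other 10 were not analysed here. Summed endothelial markers reached 13 CPM and summed mesenchymal markers 3.66 CPM at most. B6GFP wild type replicate 4 and B6GFP MommeD43 replicate 2 stood apart by their quality weight, of 0.101 and 0.158, against 0.293 to 4.9 in all others. The former held more RNA of the astrocyte gene Gfap (2.72 log2 CPM) and the latter more of the neuronal genes Tubb3 (6.48) and Dcx (5.20) than any other library.

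MHC class I molecules are made of a polymorphic heavy chain and the invariant light chain β2-microglobulin, and they display peptides on the cell surface. Peptides cut in the cytosol by the proteasome are pumped into the endoplasmic reticulum by the transporter TAP, a dimer of the Tap1 and Tap2 products, and tapasin, the Tapbp product, holds the empty heavy chain next to it. Most of these genes lie together in the H2 complex on chromosome 17, whose haplotype differs between the strains: C57BL/6J carries H2b and FVB/NJ carries H2q. Neural cells are known for low class I levels at rest and for raising them after interferon.

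Of the 10 genes, 9 lie on chromosome 17 of GRCm38.p6, between the start of Tapbp at 33919478 and the end of H2-M3 at 37274485, a span of 3.36 Mb. H2-K1 occupies 33996012 to 34000619, Tap1 34187556 to 34197225, Tap2 34204479 to 34216321, H2-D1 35263094 to 35267497, H2-Q4 35379617 to 35384674, H2-T23 36029977 to 36032701 and H2-T22 36037128 to 36042742. B2m lies on chromosome 2, from 122147687 to 122153082. The reads were mapped to the C57BL/6J reference, so FVB reads had to align to H2b alleles, and how much RNA there was and how well it aligned cannot be told apart.

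The sequences of the class I heavy chain genes are close to each other, which bears on the values of those that share windows of read length. In the reference, the coding sequences of H2-K1 and H2-D1 are 91.4% identical over 1077 aligned bases, and those of H2-T22 and its copy H2-T10 are 96.3% identical over 1137 bases. Of all windows of 75 bases (the read length) in the transcripts of H2-T22, 18.5% also occur in transcripts of another gene, chiefly H2-T10. The share was 7.02% for H2-Q4, 5.91% for H2-T23, 5.4% for H2-D1, 3.1% for H2-K1 and 1.1% for Tapbp, and no window of H2-M3, B2m, Tap1 or Tap2 was shared. To show what a read must carry to be told apart, the 90 coding bases with the most differences between H2-T22 (exon 5, chr17:36040240-36040329, minus strand) and H2-T10 (exon 6, chr17:36118951-36119040, minus strand) are given, from GENCODE transcripts on GRCm38.p6 with the 14 differing bases in capitals.
H2-T22: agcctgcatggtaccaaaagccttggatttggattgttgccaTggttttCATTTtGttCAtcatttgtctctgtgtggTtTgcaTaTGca
H2-T10: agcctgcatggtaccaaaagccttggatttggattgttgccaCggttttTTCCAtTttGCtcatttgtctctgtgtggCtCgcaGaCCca

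The promoters of H2-K1, H2-D1, H2-T22 and H2-T23 are printed because these were the genes whose lines did not overlap between strains in either genotype. They are RefSeq promoters on GRCm38.p6, from 250 bases before to 50 after the annotated start. Of the 10 genes, 9 had an entry and Tap2 had none. For H2-K1, which has 2 entries, the one with the start further downstream is shown. Capitals mark 3 motifs, searched on both strands: GGGGATTCC, the NF-κB core of enhancer A, GAAANNGAAA, the core of the interferon-stimulated response element, and CCAAT, the box bound by NF-Y. None of the marked matches overlapped another.
H2-K1, chr17:34000284-34000583, minus strand: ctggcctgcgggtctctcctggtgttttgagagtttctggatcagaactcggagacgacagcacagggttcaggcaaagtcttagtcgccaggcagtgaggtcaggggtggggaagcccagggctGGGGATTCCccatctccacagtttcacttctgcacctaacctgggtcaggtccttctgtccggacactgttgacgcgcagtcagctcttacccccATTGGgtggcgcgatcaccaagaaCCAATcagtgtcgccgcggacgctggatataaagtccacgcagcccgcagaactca
H2-D1, chr17:35262844-35263143, plus strand: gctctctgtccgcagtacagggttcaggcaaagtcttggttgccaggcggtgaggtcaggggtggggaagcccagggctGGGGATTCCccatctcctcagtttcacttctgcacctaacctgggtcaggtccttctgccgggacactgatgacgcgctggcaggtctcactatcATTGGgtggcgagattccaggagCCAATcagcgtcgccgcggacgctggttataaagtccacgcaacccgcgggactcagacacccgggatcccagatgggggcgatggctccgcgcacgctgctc
H2-T22, chr17:36042693-36042992, minus strand: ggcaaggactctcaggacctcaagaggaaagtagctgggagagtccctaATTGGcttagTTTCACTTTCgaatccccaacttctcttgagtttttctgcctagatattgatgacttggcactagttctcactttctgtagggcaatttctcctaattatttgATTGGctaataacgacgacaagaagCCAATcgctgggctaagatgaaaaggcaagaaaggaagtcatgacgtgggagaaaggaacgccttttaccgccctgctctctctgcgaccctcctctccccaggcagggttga
H2-T23, chr17:36032652-36032951, minus strand: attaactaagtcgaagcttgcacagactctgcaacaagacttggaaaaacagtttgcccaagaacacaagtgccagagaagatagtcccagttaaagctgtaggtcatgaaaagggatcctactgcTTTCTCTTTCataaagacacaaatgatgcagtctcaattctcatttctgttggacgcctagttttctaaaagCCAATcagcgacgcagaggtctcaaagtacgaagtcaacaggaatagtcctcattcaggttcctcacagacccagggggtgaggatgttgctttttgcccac
The enhancer A letters stood in the promoters of H2-K1 and H2-D1 and in 0.25% of all 32851 promoters of the table. The interferon element letters stood in H2-T22, H2-T23 and B2m and in 3.44% of all promoters. A CCAAT box was found in all 9 promoters and in 37.4% of the table. These are matches of letters in the C57BL/6J sequence, and the FVB sequence was not used here. Only exact matches were searched, so a promoter without a mark may still hold a variant of a motif.

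Per kilobase of exon, B2m was the most abundant of the 10 in every group. On the scale log2 CPM per kb, FVB wild-type lines had 6.42 for B2m, 5.55 for H2-K1 and 4.22 for H2-D1, and each of these steps was larger than the SD over lines. Tapbp (2.24), Tap1 (1.68), H2-T22 (1.31), H2-Q4 (1.13), H2-T23 (0.79) and Tap2 (0.70) followed. In that run H2-T22 and H2-Q4 differed by 0.18 with a larger SD of 0.245, H2-Q4 and H2-T23 by 0.34 with an SD of 0.39, and H2-T23 and Tap2 by 0.08 with the same SD, so none of these neighbours differed beyond their spread. H2-M3 was last, at -2.43. In B6GFP wild-type lines H2-T22 moved up to 2.30, level with Tapbp at 2.23, while H2-T23 moved down to -0.92. H2-M3 stayed below 1 CPM in every library.

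Between the strains, 6 of the 10 genes differed in wild-type cells. H2-K1, H2-D1, H2-T23, Tap1 and Tap2 were lower in B6GFP than in FVB, and H2-T22 was higher. The differences ran from 1.40-fold for Tap1 to 3.34-fold for H2-T23. H2-Q4, B2m, Tapbp and H2-M3 did not pass the test (limma, Benjamini-Hochberg over 14922 genes, adjusted p threshold 0.05). The strains differed widely: 23.2% of all genes were called lower in B6GFP and 17.9% higher, so the 5 and 1 of 10 here stand against a high background. The median change was -0.28 over the 10 genes and -0.02 over all genes. The same 6 genes were called in the same direction in MommeD43 cells, where 19.6% of all genes were lower in B6GFP and 14.7% higher.

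**Figure D1:**
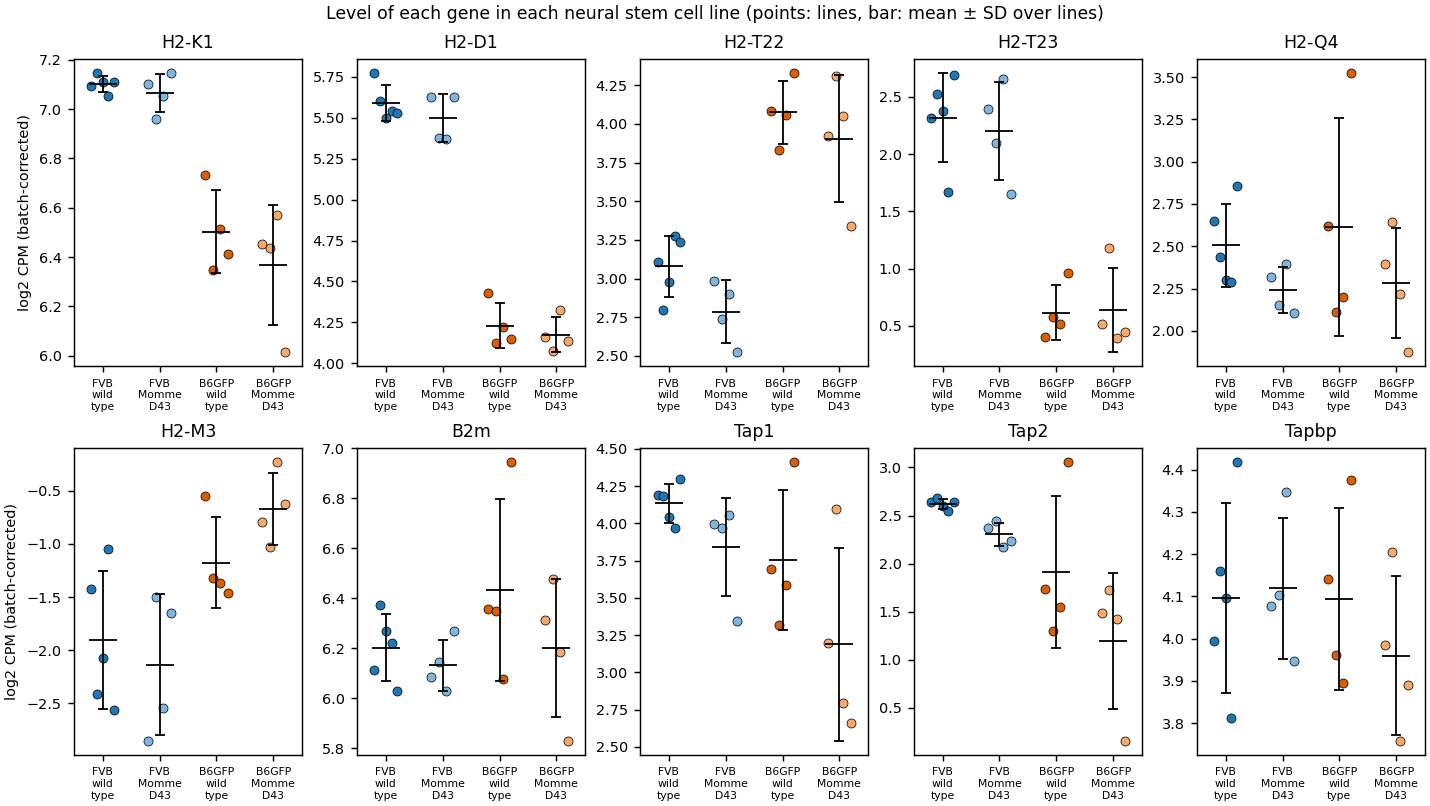
Level of each of the 10 genes in log2 CPM (vertical axis, its range differing between panels) in each line, with 1 point a line and a bar for the mean ± SD over lines. H2-K1, H2-D1 and H2-T23 lay lower, and H2-T22 higher, in every B6GFP line than in every FVB line, and 1 B6GFP wild-type line (replicate 4) lay high for H2-Q4, B2m, Tap1 and Tap2.

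H2-K1 encodes a classical heavy chain that presents peptides to cytotoxic T cells. The FVB wild-type lines had 7.09, 7.15, 7.11, 7.05 and 7.11 log2 CPM and the B6GFP wild-type lines 6.73, 6.35, 6.51 and 6.41. The FVB MommeD43 lines had 7.10, 6.96, 7.05 and 7.15, and the B6GFP MommeD43 lines 6.45, 6.01, 6.44 and 6.57. Every B6GFP line was below every FVB line of its genotype. The fitted strain difference was -0.62 (SE 0.0744, adjusted p = 1.19e-06) in wild type and -0.62 (SE 0.0876, adjusted p = 1.6e-05) in MommeD43, on the log2 scale in limma. FVB lines were close together, with an SD of 0.0334 in wild type, against 0.168 in B6GFP wild type.

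H2-D1, the other classical heavy chain gene of the reference haplotype, differed more. FVB wild-type lines had 5.77, 5.6, 5.50, 5.54 and 5.53 log2 CPM and B6GFP wild-type lines 4.43, 4.13, 4.22 and 4.15. FVB MommeD43 lines had 5.63, 5.38, 5.37 and 5.63, and B6GFP MommeD43 lines 4.16, 4.08, 4.32 and 4.14. The strains were separated by more than 1 log2 unit in both genotypes, without overlap. The fitted differences were -1.29 (SE 0.096, adjusted p = 1.22e-09) and -1.23 (SE 0.113, adjusted p = 4.78e-08) by limma, which put H2-D1 at rank 116 of 14922 genes by p in wild type.

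H2-T22 and H2-T23 lie next to each other and differed in opposite directions. H2-T22 encodes a heavy chain that binds no peptide and is recognised by some γδ T cells. Its FVB wild-type lines had 3.11, 2.80, 2.98, 3.28 and 3.24 log2 CPM and its B6GFP wild-type lines 4.09, 3.83, 4.06 and 4.33. In MommeD43 the FVB lines had 2.98, 2.74, 2.9 and 2.52, and the B6GFP lines 3.92, 4.31, 4.05 and 3.34. All B6GFP lines were above all FVB lines. The fitted differences were 1.01 (SE 0.109, adjusted p = 2.69e-07) in wild type and 1.26 (SE 0.128, adjusted p = 1.99e-07) in MommeD43 by limma.

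H2-T23 encodes the heavy chain of Qa-1, which shows leader peptides of other class I chains to NKG2 receptors on natural killer cells. FVB wild-type lines had 2.32, 2.53, 2.38, 1.67 and 2.70 log2 CPM, and B6GFP wild-type lines 0.41, 0.58, 0.51 and 0.96. FVB MommeD43 lines had 2.40, 2.10, 2.65 and 1.66, and B6GFP MommeD43 lines 0.52, 1.18, 0.40 and 0.45. The B6GFP lines were lower without overlap in both genotypes, and FVB lines spread by about 1 log2 unit. The fitted differences were -1.74 (SE 0.176, adjusted p = 1.28e-07) and -1.45 (SE 0.207, adjusted p = 1.77e-05) by limma. As a difference within lines, H2-T22 exceeded H2-T23 by 0.27 to 1.60 log2 units in FVB wild type and by 3.25 to 3.68 in B6GFP wild type.

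H2-T10, the near copy of H2-T22, is given here because the 2 genes share windows of read length. H2-T10 was at 3.96 to 4.26 log2 CPM in FVB wild-type lines and at 0.87 to 2.0 in B6GFP wild-type lines, a fitted difference of -2.82 (SE 0.142, adjusted p = 2.21e-12 by limma), opposite to H2-T22. H2-T22 made up 30.5% to 38.4% of the summed H2-T22 and H2-T10 CPM in FVB wild type and 83.4% to 88.7% in B6GFP wild type. The sum itself was 4.51 to 4.80 log2 CPM in FVB wild type and 4.01 to 4.59 in B6GFP wild type, lower in B6GFP by 0.39 on average with overlapping lines. The sum was chosen after the values were seen and is a description. In MommeD43 the sum was 4.42 to 4.59 in FVB and 3.53 to 4.52 in B6GFP. How reads of the FVB alleles were shared between the copies was not tested.

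Across the 6 heavy chain genes summed, FVB wild-type lines had 7.63 to 7.73 log2 CPM and B6GFP wild-type lines 6.90 to 7.26. H2-K1 made up 64.6% to 68.5% of that sum in FVB wild type and 62.3% to 69.5% in B6GFP wild type, a like share, whereas H2-D1 made up 22.3% to 25.8% in FVB and 12.9% to 14.6% in B6GFP. In MommeD43 the share of H2-D1 was 21.4% to 24.2% in FVB and 12.7% to 17.9% in B6GFP. These sums are not per length and describe reads.

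H2-Q4, a non-classical heavy chain gene, did not pass the test, at 2.29 to 2.86 log2 CPM in FVB wild type and 2.11 to 3.52 in B6GFP wild type. The fitted difference was -0.01 with a 95% interval of -0.28 to 0.27 in wild type and 0.17 (-0.15 to 0.49) in MommeD43. H2-M3, whose product presents N-formylated peptides, was low, at -2.56 to -1.05 in FVB wild type and -1.47 to -0.55 in B6GFP wild type. Its MommeD43 lines did not overlap, at -2.85 to -1.50 in FVB and -1.03 to -0.23 in B6GFP, but its fitted differences, 0.83 (adjusted p = 0.0835) and 1.07 (adjusted p = 0.0688) by limma, missed the threshold. In wild type H2-M3 passed without FVB MommeD43 replicate 2 (0.92, adjusted p = 0.0395 by limma) or B6GFP wild type replicate 2 (1.33, adjusted p = 0.0134), with line means (1.10, adjusted p = 0.0259), with libraries centred on their median (0.96, adjusted p = 0.0438) and with a replicate number shared by all groups as a block (1.31, adjusted p = 0.0135). In MommeD43 it passed without FVB MommeD43 replicate 2 (1.94, adjusted p = 0.000365 by limma), B6GFP wild type replicate 2 (1.08, adjusted p = 0.0378), B6GFP MommeD43 replicate 3 (1.15, adjusted p = 0.00726) or FVB wild type replicate 5 (1.19, adjusted p = 0.0493), and with line means (1.46, adjusted p = 0.00247).

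B2m, which pairs with every heavy chain named here, did not pass the test. Its lines were at 6.03 to 6.37 log2 CPM in FVB wild type and 6.08 to 6.95 in B6GFP wild type. The fitted difference was 0.08 with a 95% interval of -0.08 to 0.24 in wild type and 0.16 (-0.02 to 0.35) in MommeD43, which bounds any lower value in B6GFP well short of that of H2-D1. In MommeD43, B2m passed without FVB MommeD43 replicate 2 (0.25, adjusted p = 0.0238 by limma), with line means (0.19, adjusted p = 0.0455) and with a replicate number shared by all groups as a block (0.35, adjusted p = 0.0131). In CPM, the 6 heavy chain genes together had 2.52 to 3.18 times the value of B2m in FVB wild type and 1.11 to 1.97 times in B6GFP wild type, without overlap.

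Tap1 and Tap2, the TAP subunits, were lower in B6GFP, with 1 line standing apart. Tap1 was at 4.19, 4.18, 4.04, 3.97 and 4.30 log2 CPM in FVB wild-type lines and at 3.70, 3.31, 3.59 and 4.41 in B6GFP wild-type lines. The last of these, replicate 4, was higher than every FVB line, and the other 3 were below all of them. In MommeD43 the FVB lines had 4.0, 3.97, 4.05 and 3.35 and the B6GFP lines 3.20, 4.10, 2.80 and 2.66, again with 1 B6GFP line, replicate 3, above every FVB line. The libraries of that replicate were at 3.71 in batch 1 and 4.48 in batch 3, so it stood above FVB only through batch 3. The fitted differences, in which B6GFP wild type replicate 4 and B6GFP MommeD43 replicate 2 weigh least, were -0.48 (SE 0.153, adjusted p = 0.0161) in wild type and -0.53 (SE 0.18, adjusted p = 0.0283) in MommeD43 by limma.

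Tap2 was at 2.64, 2.68, 2.60, 2.55 and 2.65 log2 CPM in FVB wild-type lines and at 1.74, 1.30, 1.55 and 3.06 in B6GFP wild-type lines. In MommeD43 the FVB lines had 2.37, 2.44, 2.17 and 2.24 and the B6GFP lines 1.49, 1.73, 1.43 and 0.16. B6GFP wild type replicate 4 was again the only wild-type B6GFP line above the FVB lines, and the MommeD43 lines did not overlap. The fitted differences were -1.01 (SE 0.136, adjusted p = 5.4e-06) and -0.86 (SE 0.16, adjusted p = 0.000303) by limma. With all libraries weighted equally, neither gene passed: Tap1 was at -0.45 (adjusted p = 0.461) and Tap2 at -0.81 (adjusted p = 0.169) in wild type, and at -0.57 (adjusted p = 0.419) and -1.04 (adjusted p = 0.122) in MommeD43. Without both libraries of low weight, Tap1 was at -0.49 (adjusted p = 0.0114) and Tap2 at -1.04 (adjusted p = 7.24e-07) in wild type. The call of Tap1 was also lost without FVB wild type replicate 2 (-0.52, adjusted p = 0.05) and B6GFP wild type replicate 2 (-0.44, adjusted p = 0.0942) in wild type, and without FVB MommeD43 replicate 1 (-0.46, adjusted p = 0.0759), B6GFP wild type replicate 2 (-0.35, adjusted p = 0.185), B6GFP MommeD43 replicate 1 (-0.23, adjusted p = 0.262) or B6GFP MommeD43 replicate 4 (-0.33, adjusted p = 0.223) in MommeD43.

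Tapbp, which encodes tapasin, did not pass the test, with lines at 3.81 to 4.42 log2 CPM in FVB wild type and 3.90 to 4.38 in B6GFP wild type. The fitted difference was -0.07 with a 95% interval of -0.25 to 0.10 in wild type and -0.17 (-0.38 to 0.04) in MommeD43, where it passed without B6GFP MommeD43 replicate 3 (-0.19, adjusted p = 0.0284 by limma).

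**Figure D2:**
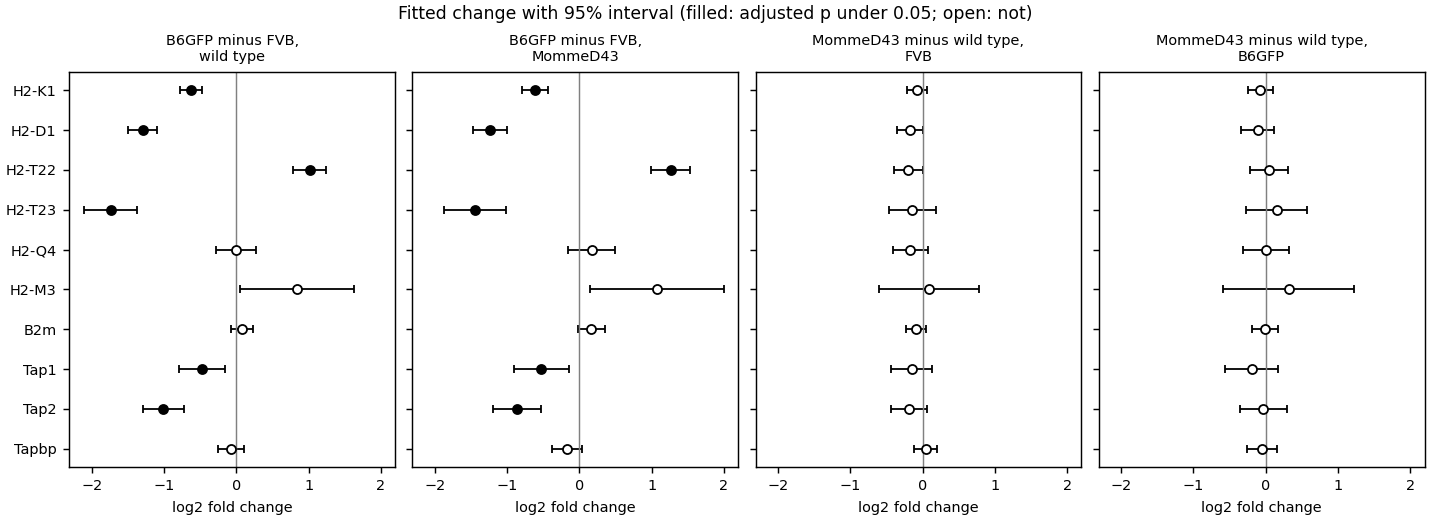
Fitted log2 fold change (horizontal axis) of the 10 genes with 95% intervals, in 4 comparisons, filled where the adjusted p was under 0.05. The 2 strain comparisons on the left each hold the same 6 filled points, and the 2 comparisons of MommeD43 with wild type on the right hold none.

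Lines of the strains did not overlap for H2-K1, H2-D1, H2-T22 and H2-T23 in wild type, 4 of 10 genes against 15.9% of all genes, and for H2-K1, H2-D1, H2-T22, H2-T23, H2-M3 and Tap2 in MommeD43, 6 of 10 against 21.3% of all genes. The two-sided exact permutation test over lines gave p = 0.00794 for H2-K1, H2-D1, H2-T22 and H2-T23 in wild type, the smallest p that 5 lines against 4 allow, and p = 0.119 for Tap1 and 0.127 for Tap2. In MommeD43 the exact permutation p was 0.0286, the smallest that 4 lines against 4 allow, for all 6 genes without overlap. Batch 1 held both strains. Within it, the same 6 genes passed in each genotype, with wild-type values of -0.58 for H2-K1, -1.27 for H2-D1, 1.07 for H2-T22, -1.77 for H2-T23, -0.43 for Tap1 and -0.98 for Tap2. Batches 2 and 3 held 1 strain each.

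Between MommeD43 and wild type, none of the 10 genes passed the test in either strain. By limma, 0 of 10 were called in FVB, against 0.0737% of all genes, and 0 of 10 in B6GFP, against 0.00%, and 0 of 10 had an unadjusted p under 0.05 in either. Averaged over the strains, 0 of 10 were called (0.0335% of all genes), and 0 of 10 had a MommeD43 effect that differed between strains (0.00% of all genes), again with 0 of 10 at an unadjusted p under 0.05. The largest fitted change was -0.20 in FVB, for H2-T22, with a 95% interval of -0.40 to 0.00. In B6GFP it was 0.32 for H2-M3 (-0.59 to 1.22).

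For the classical heavy chains the intervals were narrow. H2-K1 changed by -0.08 (95% interval -0.22 to 0.06) in FVB and by -0.07 (-0.25 to 0.10) in B6GFP, and H2-D1 by -0.17 (-0.35 to 0.01) and -0.11 (-0.34 to 0.12). For B2m the values were -0.09 (-0.23 to 0.04) and -0.01 (-0.19 to 0.17). The median over the 10 genes was -0.15 in FVB and -0.02 in B6GFP, and over all genes 0.01 in each.

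Tap2 in FVB was the 1 gene of the 10 for which the tests differed. Its 5 wild-type lines lay at 2.55 to 2.68 log2 CPM and its 4 MommeD43 lines at 2.17 to 2.44, without overlap. The difference of line means was -0.32, with an exact permutation p of 0.00794 (two-sided, unadjusted, 1 of 10 genes tested), the smallest this design allows. Neither the overlap of lines nor this test was run over all genes for MommeD43 in FVB, so no background share is given. The limma fit gave -0.19 (SE 0.12, adjusted p = 0.864, unadjusted p = 0.133). In B6GFP, the Tap2 lines overlapped, at 1.30 to 3.06 in wild type and 0.16 to 1.73 in MommeD43, and the difference of line means was -0.71 (exact permutation p = 0.314), against a fitted change of -0.03 (SE 0.156), in which the highest wild-type line and the lowest MommeD43 line weigh least.

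Along the H2 complex, strain differences were not limited to antigen presentation genes. The region between Tapbp and H2-M3 held 105 other genes of the table, of which 24 were called higher and 32 lower in B6GFP in wild type (22.9% and 30.5%, against 17.9% and 23.2% of all genes). In MommeD43, 16 were higher and 32 lower (15.2% and 30.5%, against 14.7% and 19.6% of all genes). Without the 11 genes that have an H2 symbol, 22 of 94 were higher and 25 of 94 lower in wild type (23.4% and 26.6%). Those 94 still hold the proteasome genes Psmb8 and Psmb9. They also hold Gm7030, Gm8909, Gm10499 and Gm11127, which share windows of read length with H2-K1 and H2-D1 and were each called lower. The median change of the 105 genes was -0.06, against -0.02 over all genes. The largest differences among neighbours with a mean above 1 CPM were those of AA388235, a long non-coding RNA gene, at 7.30 (SE 0.215, adjusted p = 1.65e-16), of Gm8909 at -3.05 (SE 0.22, adjusted p = 8.09e-10), and of H2-Q1, at -2.93 (SE 0.148, adjusted p = 2.21e-12), all by limma. AA388235 had a mean of -2.67 log2 CPM in FVB wild type and 4.6 in B6GFP wild type. No neighbour was called in any comparison of MommeD43 with wild type.

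**Figure D3:**
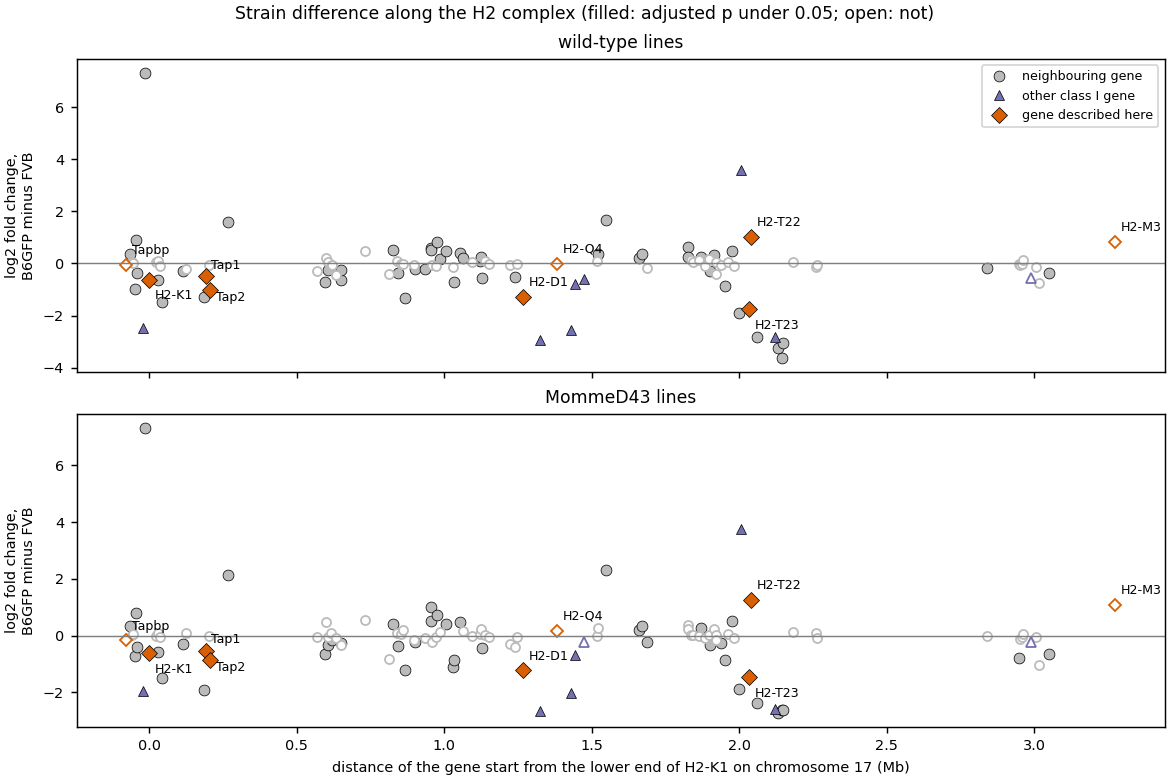
Log2 fold change between the strains (vertical axis) of every gene of the table between Tapbp and H2-M3, by the distance of its start from the lower end of H2-K1 in Mb, in wild-type lines (upper panel) and MommeD43 lines (lower panel). Filled symbols passed the test, and the H2-T22 point lies above zero beside H2-T23 below zero, about 2 Mb from H2-K1.

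The other class I genes of the H2 complex in the table numbered 9. In wild type 7 were lower in B6GFP and 1 was higher, with a median of -1.09, against 23.2% lower and 17.9% higher of all genes. In MommeD43 6 were lower and 1 was higher, with a median of -1.47, against 19.6% lower and 14.7% higher of all genes. H2-Q1 (means of 2.58 log2 CPM in FVB wild type and -0.25 in B6GFP wild type), H2-T10 and H2-Q6 (1.86 and -0.60, a fitted difference of -2.54, SE 0.241, adjusted p = 4.92e-08 by limma) had the largest differences among those with a mean above 1 CPM. The 1 gene that was higher was H2-T24, at -2.88 in FVB and 0.80 in B6GFP wild type, named after its value was seen. H2-Q1 and H2-Q6 share windows of read length with H2-K1, H2-D1 and H2-Q4.

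Of 10 genes that supply peptides (the proteasome, its activators and Erap1), 4 were lower and 1 was higher in B6GFP wild type, and 3 were lower and 1 was higher in MommeD43. That is 5 and 4 of 10 called, against 41.1% and 34.3% of all genes, and the medians were -0.08 and -0.06. Psme2, a subunit of the proteasome activator PA28, fell from a mean of 4.61 log2 CPM in FVB to 3.98 in B6GFP wild type (fitted -0.61, SE 0.0912, adjusted p = 2.28e-05). Erap1, the peptidase that trims peptides in the endoplasmic reticulum, was at 4.53 and 4.20 (-0.46, SE 0.119, adjusted p = 0.00418). Psmb10, an immunoproteasome subunit, was at 4.22 and 4.09 (-0.21, SE 0.0771, adjusted p = 0.0353). Psmb5, a subunit of the constitutive proteasome, was the gene that was higher, by 0.18 in each genotype (adjusted p = 0.00324 in wild type and 0.0152 in MommeD43). Psmb9, another immunoproteasome subunit encoded beside Tap1, had a mean below 1 CPM and was also lower (-1.28, SE 0.342, adjusted p = 0.00509). Psmb9 and Psmb8 were named after their values were seen. Psmb8, which starts between Tap1 and Tap2, was not called in wild type (-0.07, adjusted p = 0.85) or MommeD43 (-0.03, adjusted p = 0.952). Psmb10 was not called in MommeD43 (-0.15, adjusted p = 0.202). All of these tests were by limma.

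Of 7 genes for peptide loading and chaperones (Calr, Canx, Pdia3, Tapbpl, Hspa5, Uggt1 and Ganab), 0 were called between the strains in either genotype by limma, against 41.1% of all genes in wild type and 34.3% in MommeD43. Their median change was 0.01 in each genotype. Calnexin (Canx) was at a mean of 9.65 log2 CPM in FVB wild type and 9.71 in B6GFP wild type.

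Of 22 regulators of class I genes and of interferon signalling, 5 were higher and 5 lower in B6GFP wild type, and 1 was higher and 5 lower in MommeD43. The shares called, 45.5% and 27.3%, stand against 41.1% and 34.3% of all genes, so the single genes named here are given as values of the list and not as a result about it. Jak2, a kinase of the interferon γ receptor, was higher, at means of 7.03 and 7.51 log2 CPM (0.49, SE 0.0729, adjusted p = 2.16e-05 by limma). Jak1, of the same list, was lower (-0.29, SE 0.0496, adjusted p = 8.15e-05 by limma) and was named after its value was seen. Stat2 and Tyk2, of the type I interferon pathway, were lower, at -0.55 (SE 0.125, adjusted p = 0.00148) and -0.35 (SE 0.0871, adjusted p = 0.00319). Rfx5, a subunit of the RFX factor that binds MHC promoters, was at -0.33 (SE 0.11, adjusted p = 0.0219) in wild type and -0.35 (SE 0.13, adjusted p = 0.0403) in MommeD43, all by limma. Nlrc5, the class I transactivator, was below 1 CPM, with a mean of -1.17 in FVB wild type and -1.04 in B6GFP wild type, and was not called (0.07, adjusted p = 0.872 by limma).

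Among 9 class I-like genes outside the complex, 4 were higher and 2 lower in B6GFP wild type, and 3 were higher and 3 lower in MommeD43. That is 44.4% higher and 22.2% lower in wild type, against 17.9% and 23.2% of all genes, and 33.3% in each direction in MommeD43, against 14.7% higher and 19.6% lower. The 3 with the largest differences among those with a mean above 1 CPM encode ligands of the receptor NKG2D. H60b was at means of 1.33 log2 CPM in FVB and 4.67 in B6GFP wild type (3.37, SE 0.2, adjusted p = 3.6e-11), Raet1d at 3.16 and 4.01 (0.98, SE 0.129, adjusted p = 4.47e-06) and Ulbp1 at 2.31 and 1.01 (-1.37, SE 0.255, adjusted p = 0.000216 by limma). Of 12 class II genes, 2 were in the table and 10 were not analysed here. H2-Ab1, a class II β chain, was called higher in B6GFP, with means of -0.29 log2 CPM in FVB wild type and 1.49 in B6GFP wild type (1.59, adjusted p = 9.32e-05 by limma), and H2-DMa was not called (-0.21, adjusted p = 0.278). Both were named after their values were seen. None of these lists held a gene called between MommeD43 and wild type. Leaving out both libraries of low weight changed none of the counts for these 6 lists in the strain comparisons.

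**Figure D4:**
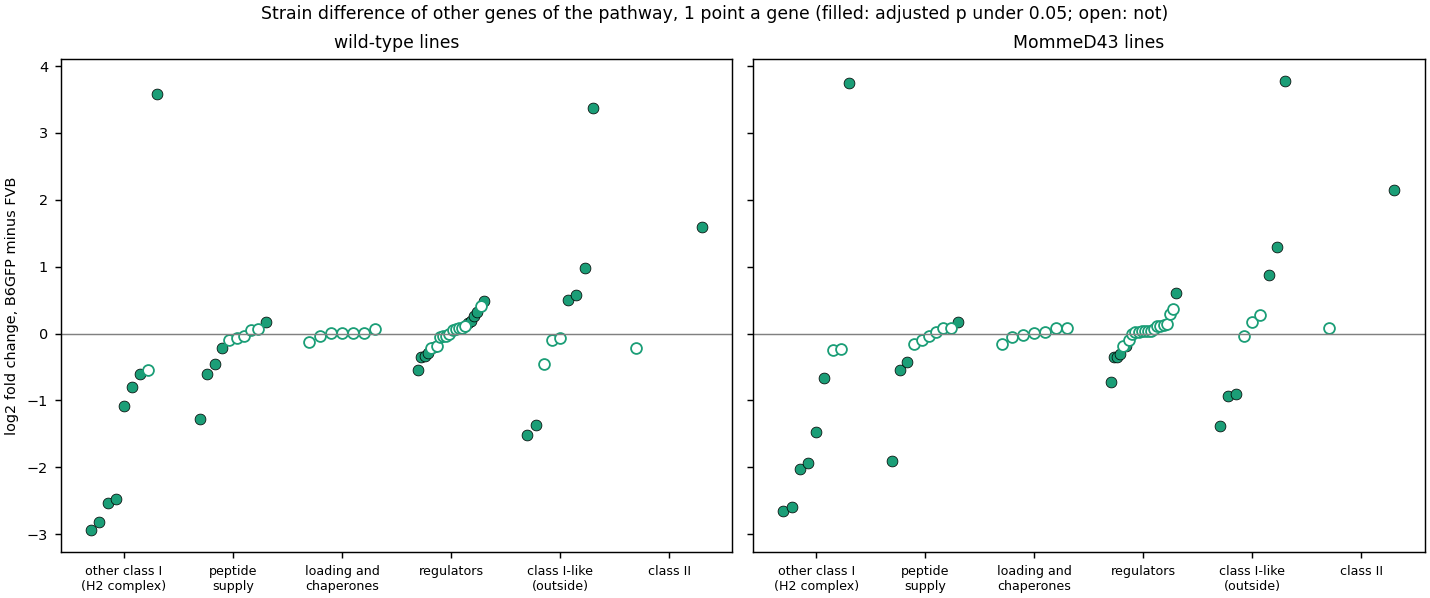
Log2 fold change between the strains (vertical axis) of each gene of 6 lists of the pathway, ordered within a list, in wild-type lines (left) and MommeD43 lines (right), filled where the adjusted p was under 0.05. The other class I genes spread from -2.93 to 3.59 in wild type, whereas the 7 loading and chaperone genes lay near zero and unfilled.

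Markers of several cell types differed between the strains, where 23.2% of all genes were lower in B6GFP wild type and 17.9% higher. The summed astrocyte markers Gfap, Aqp4 and Aldh1l1 were at 70.1 to 155 CPM in FVB wild-type and 20.1 to 104 CPM in B6GFP wild-type libraries, with 3 of 3 called lower in B6GFP. Gfap and Aqp4 had a mean over all lines below 1 CPM. Of 5 neuronal markers, 2 were called lower in B6GFP wild type, Dcx (-1.90, adjusted p = 0.000525 by limma) and Rbfox3 (-1.03, adjusted p = 0.0126), and of 4 mesenchymal markers 2, Col1a1 (-2.0, adjusted p = 0.000456) and Pdgfrb (-1.06, adjusted p = 0.0448), both with a mean below 1 CPM. Neural stem cell markers were split, with Nes and Vim higher in B6GFP wild type and Sox2, Fabp7 and Hes5 lower, 5 of 6 being called. In MommeD43, 3 of 3 astrocyte markers were lower, and 1 of 5 neuronal markers was higher and 1 lower. Of 4 mesenchymal markers 1 was lower there, and of 6 stem cell markers 2 were higher and 2 lower. This stands against 19.6% of all genes lower and 14.7% higher in MommeD43. The part of these cell types in the strain differences of the class I genes was not tested. In bulk RNA, fewer cells of a type and less RNA per cell cannot be told apart.

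Within the groups, some of the genes rose and fell together from line to line. After subtracting the group mean, 45 pairs were compared over 17 lines, and 10 had an adjusted p under 0.05 (permutation within groups, 100000 resamples, two-sided, Benjamini-Hochberg over the 45 pairs). Of all pairs 30 had a positive r, and the median r was 0.37. H2-Q4 and Tap1 were the closest by p, with Pearson r = 0.81 and Spearman rho = 0.85 (permutation p = 1e-05 for each, the smallest the resamples can give, adjusted p = 0.00045), and r = 0.75 without the 2 lines farthest out. H2-T23 and Tapbp had r = 0.85 (permutation p = 0.00011, adjusted p = 0.0021) and rho = 0.76 (permutation p = 0.00074, adjusted p = 0.0067), with r = 0.79 without those 2 lines. Tap1 and Tapbp had r = 0.76 (permutation p = 0.00014, adjusted p = 0.0021) and rho = 0.77 (permutation p = 0.00046, adjusted p = 0.0067), with r = 0.65 without those 2 lines. H2-T23 and Tap1 had r = 0.76 (permutation p = 0.00048, adjusted p = 0.0054) and rho = 0.81 (permutation p = 0.0006, adjusted p = 0.0067), and r = 0.76 without those 2 lines.

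H2-T23 and H2-M3 moved in opposite directions, with r = -0.80 (permutation p = 0.00076, adjusted p = 0.0058) and rho = -0.83 (permutation p = 0.00023, adjusted p = 0.0052), and r = -0.76 without the 2 lines farthest out. H2-M3 was below 1 CPM in every library, where values are noisy. Its libraries of B6GFP wild type replicate 2 were at -2.12 log2 CPM in batch 1 and -0.52 in batch 3. The pair H2-K1 and H2-D1 did not pass, at r = 0.56 (permutation p = 0.026, adjusted p = 0.077) and rho = 0.61 (permutation p = 0.02, adjusted p = 0.067). Without B6GFP wild type replicate 4, 6 pairs passed and the median r was 0.29. Lines also differed in depth, batch and quality weight, whose part in these correlations was not tested.

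**Figure D5:**
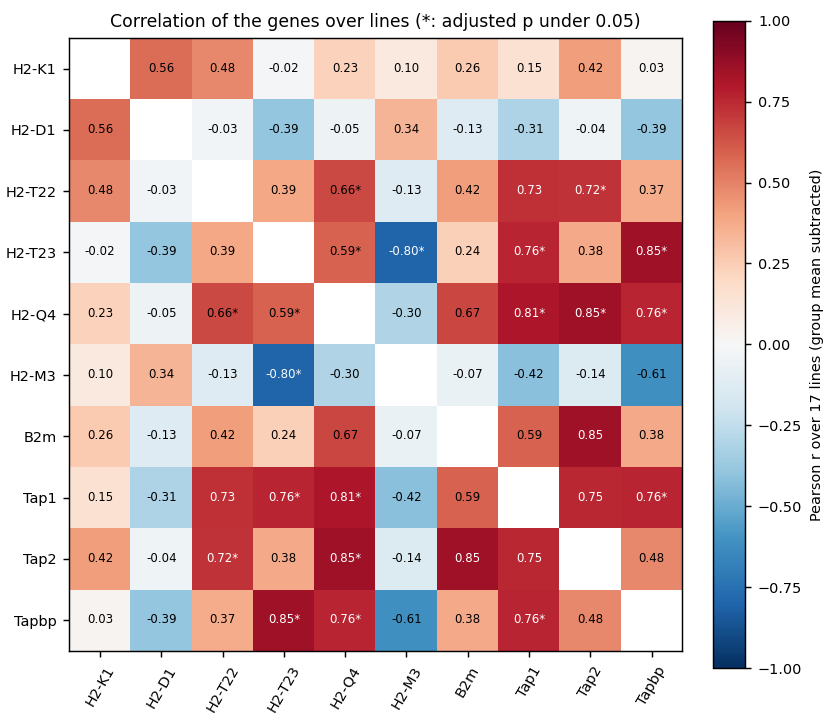
Pearson r of each pair of the 10 genes over 17 lines after subtracting the group mean, by colour from -1 to 1 and printed in each cell, with a star where the adjusted permutation p was under 0.05. H2-T23, H2-Q4, Tap1 and Tapbp are joined by positive values of 0.59 to 0.85, all starred, and H2-T23 with H2-M3 is at -0.80.

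By the same measure over 12695 named genes above 1 CPM, the genes most like H2-K1 were Fbxo8 (r = 0.88), Hist1h2ba (0.84) and Tmem100 (0.82). For H2-D1 they were Arl10 (r = 0.80), Zfp511 (0.79) and Adgrb2 (0.78). For B2m they were Jam2 (r = 0.96), Crim1 (0.95) and Pnrc1 (0.94), and for Tap1 Parp12 (r = 0.98), Scamp2 (0.96) and Prtg (0.95). Without B6GFP wild type replicate 4 the values for B2m were 0.93, 0.90 and 0.89. These are the highest of many values over 17 lines and are given as a description.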

How the data were processed

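Poly(A) RNA of neural stem cells was sequenced as single 75-base reads. Per the labels and the study's methods, the authors trimmed reads with Trim Galore 0.4.4, aligned them with HISAT2 2.0.5 to GRCm38.p6, counted them per gene and corrected for batch with limma 3.40.6. The deposited values are log2 CPM, whose depth in reads is unknown. All 3143 low values checked lay on whole steps within 0.01 of a step, which gave relative depths only. The values are already corrected, so no count test was run.

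A linear model was fitted in limma 3.58.1 (R 4.3.3) to all 14922 genes, with group and batch as terms, line as a block (correlation 0.0831), library quality weights and a mean-variance trend. The Benjamini-Hochberg adjustment ran over the whole table, and an adjusted p under 0.05 counted as a call. Since batch was fitted again on corrected values, and the degrees of freedom used by the authors' correction are not counted, p-values may be too small. Single genes were also tested on line means by a two-sided exact permutation test. Intervals are 95%. Correlations used line means after subtraction of the group mean, permuted within groups.

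Members and gene lists were chosen with earlier results of these data known. Genes of a list were named by the largest differences among those called with a mean above 1 CPM, and others are marked where they appear. Symbols were matched for 14453 Entrez identifiers and not for 469. Python 3.11.15, numpy 2.4.6, pandas 2.3.3 and matplotlib 3.10.9 were used. Alternatives covered weights, trend, blocks, line means, filters, pseudocounts, scaling, columns, batches and leaving out each line.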

Additional observations from a re-analysis of the deposited data

Results flagged for a closer look

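For each of the 10 genes and 4 groups, the line farthest from the others was compared with Dixon's 95% critical value, 40 groups in all. Chance alone marks about 1 in 20 such groups. The H2-T23 level of B6GFP MommeD43 replicate 3 was 1.18 log2 CPM, against 0.40 to 0.52 in the other 3 lines, a gap of 0.847 of the range. The H2-M3 level of B6GFP wild type replicate 1 was -0.55, against -1.47 to -1.32 in the other 3 lines, a gap of 0.84 of the range. The Tap1 level of FVB MommeD43 replicate 5 was 3.35, against 3.97 to 4.05 in the other 3 lines, a gap of 0.878 of the range. The critical value for 4 lines is 0.829.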

How the results depend on the processing

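H2-K1, H2-D1, H2-T22, H2-T23 and Tap2 passed in all 17 fits that left out a line, in both strain comparisons, and Tap1 passed in 15 in wild type and 13 in MommeD43. Tap1 in MommeD43 also missed the threshold with libraries centred (adjusted p = 0.0529 by limma) and with only the groups compared (adjusted p = 0.2). With all 24 columns, 10 of the 10 genes were called between the strains in MommeD43, but so were 13991 of all 14922 genes. For MommeD43 averaged over strains 1 was called, against 1010 of all genes. Columns equal to a mean carry no spread. Same-numbered lines correlated at -0.618 to 0.203 over genes, and lines of different number at -0.509 to 0.615. With few lines a group and ranges this wide, whether the numbers pair lines cannot be told. With the replicate number as a block shared by all groups, added after seeing the data, 1 gene was called for MommeD43 in FVB. It was H2-D1 at -0.24 (adjusted p = 0.0471 by limma), and 137 of all genes were called in that fit. Between the strains, that block lost Tap1 in MommeD43 (-0.43, adjusted p = 0.0846) and called H2-M3 in wild type (1.31) and B2m in MommeD43 (0.35). A block within strain cannot be told apart from strain and was run for MommeD43 only. The exact permutation test, unadjusted and run on the 10 genes only, called 1 gene for MommeD43 in FVB, Tap2. Over libraries 17 correlated pairs passed, and 6 without B6GFP wild type replicate 4. The cause of these shifts was not tested.

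The values below changed sign, none past the threshold. For H2-Q4 between wild-type strains: 0.02 without weights and with line means (0.0173 and 0.0165), 0.07 when centred and in batch 1 (0.0710 and 0.0699), and 0.06 with only the groups compared (0.0636). For MommeD43 in FVB, H2-M3 was at -0.11 without weights (-0.1068), -0.23 with line means (-0.2342) and -0.12 in batch 1 (-0.1213), and Tapbp at -0.0006 with line means, -0.0057 with 24 columns, -0.1077 in batch 2 and -0.0084 with the shared block. For MommeD43 in B6GFP, batch 3 gave 0.0817 for H2-K1, 0.1186 for H2-D1, 0.1460 for B2m, 0.4568 for Tap1 and 0.2988 for Tapbp. H2-T22 was at -0.1001 without weights and -0.0599 with line means. H2-Q4 was at -0.1910 without weights, -0.0352 with line means, -0.0161 centred, -0.0540 with 24 columns, -0.0977 with the block within strain, -0.0979 in batch 1 and -0.0306 with the shared block. H2-M3 was at -0.0980 with the block within strain. B2m was at 0.1251 with that block, 0.0061 with lines sharing the first part of their number as a block, 0.1445 with the shared block and 0.0013 without both libraries of low weight. Tap1 was at 0.0006 and Tapbp at 0.0199 with the shared block, and Tap2 at 0.0449 without both libraries.

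Leaving out each line gave these ranges where the sign changed. Between wild-type strains H2-Q4 ran from -0.11 to 0.1178 and B2m from -0.0318 to 0.1615. For MommeD43 in FVB, H2-D1 ran from -0.2651 to 0.0277, H2-T22 from -0.3235 to 0.0098, H2-T23 from -0.246 to 0.0645, H2-M3 from -0.7265 to 0.4287 and Tapbp from -0.0321 to 0.0881. For MommeD43 in B6GFP, H2-K1 ran from -0.2331 to 0.0285, H2-T22 from -0.0402 to 0.1486, H2-T23 from -0.0584 to 0.4803, H2-Q4 from -0.1553 to 0.0914, H2-M3 from -0.1627 to 0.5875, B2m from -0.0906 to 0.1123, Tap1 from -0.3993 to 0.086, Tap2 from -0.1664 to 0.0458 and Tapbp from -0.0846 to 0.023.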
